A study of Homo sapiens with 4 samples.

Results

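The genes described here are 9 receptors, namely the receptor tyrosine kinases ALK, RET, NTRK2, NTRK3, KIT, FGFR1, ERBB2 and ERBB3 together with NGFR, a neurotrophin receptor without a kinase. They were chosen by symbol because of their place in neuroblastoma biology, and all 9 were found among the 19826 gene rows of the deposited table. In BE(2)C neuroblastoma cells RET was the one of the 9 with a high level, and NGFR was the one with the largest log2 difference between siMYCN and siCon libraries. BE(2)C is an established line from a human neuroblastoma, and the cells used here carry an introduced MYCN open reading frame (BE(2)C:MYCN-ORF). Polyadenylated RNA was sequenced from cells given siMYCN with the let-7a mimic, siMYCN with the control mimic miRCon, siCon with let-7a, or siCon with miRCon, all harvested 48 hours after transfection. Each of these 4 groups was 1 library, so no replicate stands behind any single difference. The labels do not say how the reading frame is driven or whether the line is 1 clone.

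Receptor tyrosine kinases are membrane proteins that dimerise when a ligand binds outside the cell, phosphorylate each other, and recruit adaptors that lead to the RAS-ERK and PI3K pathways. RET binds ligands of the GDNF family through GFRA co-receptors and acts in sympathetic and enteric neurons. ALK is mutated or amplified in some neuroblastomas, the neurotrophin receptors NTRK2, NTRK3 and NGFR govern survival and differentiation of sympathetic neurons, and KIT and the ERBB receptors are better known from melanocytes, Schwann cells and epithelia. MYCN is a transcription factor that binds the E-box CACGTG, and let-7a is a microRNA that lowers mRNAs carrying a match to its seed.

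The sequences that tie both treatments to these genes are the let-7a seed with its matches in 3' UTRs, and the promoters searched for the E-box. The mature sequence from RefSeq (GRCh38.p14) is shown with bases 2 to 8, the seed, in capitals, and is encoded identically by 3 genes on chromosomes 9, 11 and 22. In the longest GENCODE 29 3' UTR of each gene, 7 of the 9 genes, including RET, NGFR and ALK, had no match to the words CTACCTCA, CTACCTC or TACCTCA on the transcript strand. NTRK3 had 3 matches, shown with the matched word in capitals, and FGFR1 had 1, which is not printed.
hsa-let-7a-5p: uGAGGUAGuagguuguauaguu
NTRK3 7mer-m8 site at chr15:87869763-87869769, minus strand: gtaactgatgcctctgagcCTACCTCtg
NTRK3 7mer-A1 site at chr15:87868550-87868556, minus strand: gcaggcgtctttggaaactTACCTCAgg
NTRK3 7mer-A1 site at chr15:87866148-87866154, minus strand: aaaaacattgtctgcccttTACCTCAgt
The coordinates are those of the matched word on GRCh38, and each word lies in an exon, within the 3' UTR. An 8mer (CTACCTCA) holds both of the shorter words, and each site was counted once under its longest word. Among the 8914 genes with a mean level of at least 5 and an annotated 3' UTR, 21.0% had a match of some kind. The 3' UTR of NTRK3 was 17184 bases long, against a median of 1709 over those genes, and those of RET, NGFR and ALK were 2770, 2008 and 2132 bases long. A match is only a run of letters, and its absence says nothing of other kinds of site.

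The RefSeq promoter table, with windows of 250 bases before to 50 after a start, had entries for 6 of the 9 genes and 11 windows in all. The word CACGTG, which reads the same on both strands, was present in 1 of them, an internal start of ALK, and in 7.26% of the 35116 windows of the table. Windows of RET and of ALK are printed. They were chosen as the members with both a promoter entry and a mean level of at least 1. RET also had an internal window, at chr10:43104515-43104814, without CACGTG, which is not printed. Capitals mark CACGTG, which begins at base 134 of the ALK internal window.
RET, gene start, chr10:43076819-43077118 of GRCh38.p14, plus strand: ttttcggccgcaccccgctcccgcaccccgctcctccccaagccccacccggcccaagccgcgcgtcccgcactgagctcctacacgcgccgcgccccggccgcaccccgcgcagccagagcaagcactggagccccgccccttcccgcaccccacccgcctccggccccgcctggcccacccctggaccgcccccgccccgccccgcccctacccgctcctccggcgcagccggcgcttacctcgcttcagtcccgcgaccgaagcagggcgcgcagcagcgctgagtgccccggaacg
ALK, gene start, chr2:29921537-29921836 of GRCh38.p14, minus strand: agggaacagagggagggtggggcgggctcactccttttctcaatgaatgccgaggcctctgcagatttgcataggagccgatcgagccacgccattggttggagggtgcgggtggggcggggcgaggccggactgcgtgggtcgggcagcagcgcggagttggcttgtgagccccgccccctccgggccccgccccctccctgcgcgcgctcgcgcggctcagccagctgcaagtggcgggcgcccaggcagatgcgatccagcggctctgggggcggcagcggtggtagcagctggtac
ALK, internal start, chr2:29223774-29224073 of GRCh38.p14, minus strand: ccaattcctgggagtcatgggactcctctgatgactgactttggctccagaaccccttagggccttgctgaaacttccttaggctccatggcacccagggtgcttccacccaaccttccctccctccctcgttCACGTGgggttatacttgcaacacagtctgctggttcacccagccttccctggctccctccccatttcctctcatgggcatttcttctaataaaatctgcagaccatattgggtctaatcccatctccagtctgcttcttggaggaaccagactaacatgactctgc

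Levels are given as TPM-like values. The table does not name its unit, and the library sums are of the size TPM would give, but scaling to transcript length cannot be checked from the values, so every comparison of levels between genes, the ranks of RET and ALK among receptor kinases included, assumes it. The sums lay between 855811 and 862049 per library, and the read depth behind them is unknown. The 8 noradrenergic neuroblastoma markers were above 1 in every library, with summed levels of 2553 and 1844 in the siMYCN libraries with let-7a and miRCon and 2490 and 2215 in the siCon libraries. Of the 8 fibroblast markers 2 were under 1 in every library, and the others included LUM and THY1, with means of 104 and 148, while of 7 blood markers 5 were under 1. MYCN itself differed little, at 1197 and 1238 in siMYCN cells with let-7a and miRCon, against 1433 and 1449 in siCon cells. Its limma adjusted p was 0.0584, and 0.0126 with values rescaled by median ratios. In a bulk sample, fewer cells with a transcript and less of it per cell cannot be told apart.

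**Figure D1:**
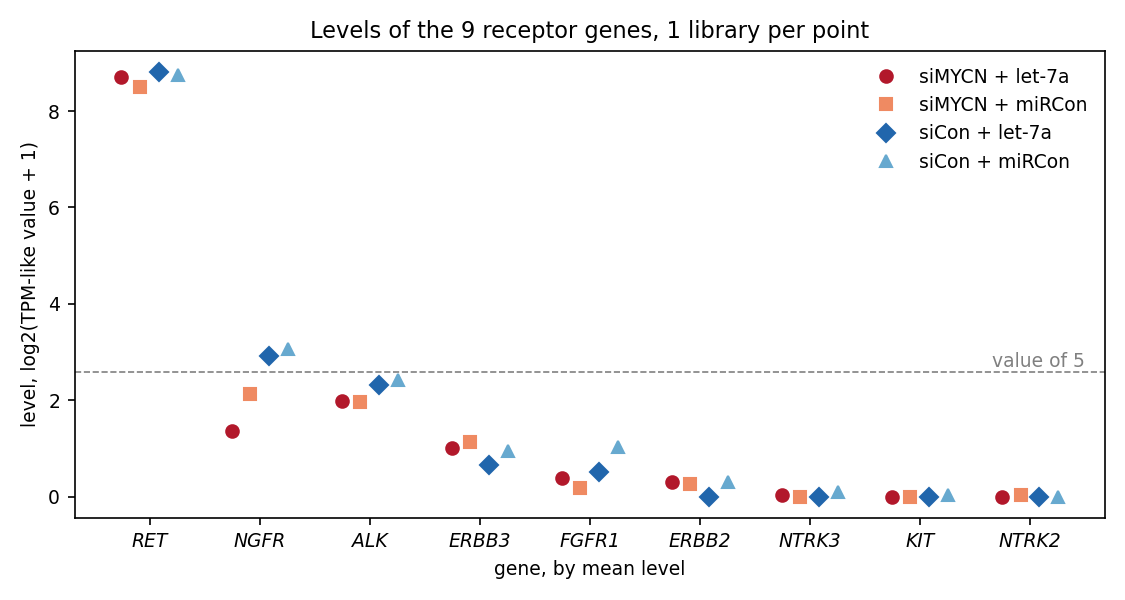
Levels of the 9 receptor genes as log2(TPM-like value + 1), with genes ordered by mean level and 1 point per library. RET sits far above the rest in all 4 libraries, and NGFR shows both siMYCN points below both siCon points.

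RET, on chr10:43077027-43130351, plus strand, reached 420 in siMYCN cells with let-7a and 362 with miRCon, against 448 and 431 in siCon cells with let-7a and miRCon. Both siMYCN libraries lay below both siCon libraries, by a small margin, as they did for 21.1% of genes with a mean of at least 5. With a mean of 415 RET ranked 178 among the 19826 gene rows. Among 56 receptor tyrosine kinase genes (insulin and IGF1 receptors not included) it ranked 1 and held 44.6% of their summed mean level. The next were DDR2, a collagen receptor, with a mean of 121, PDGFRB, a receptor for platelet-derived growth factor, with 92.6, and ROR2, a WNT receptor, with 55.9.

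The other 8 genes were low, all with means under 5. NGFR, on chr17:49495293-49515017, plus strand, averaged 4.74, and ALK, on chr2:29192774-29921566, minus strand, averaged 3.54 and ranked 19 of the 56 kinase genes. ERBB3 (chr12:56076799-56103505, plus strand), a neuregulin receptor with little kinase activity of its own, averaged 0.927. FGFR1 (chr8:38400215-38468834, minus strand), a fibroblast growth factor receptor, averaged 0.471, and ERBB2 (chr17:39687914-39730426, plus strand), the co-receptor of ERBB3, averaged 0.166.

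NTRK3 (chr15:87859751-88256768, minus strand), the receptor for neurotrophin-3, NTRK2 (chr9:84668551-85027070, plus strand), the receptor for BDNF, and KIT (chr4:54657918-54740715, plus strand), the receptor for stem cell factor, were at or near 0. NTRK3 was listed at 0.0265 in siMYCN cells with let-7a and 0.0719 in siCon cells with miRCon, and at 0 in the other libraries. NTRK2 was above 0 only in siMYCN cells with miRCon, at 0.0249, and KIT only in siCon cells with miRCon, at 0.0290. At such levels no order between neighbours can be read, and because depth is unknown no detection limit can be given.

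**Figure D2:**
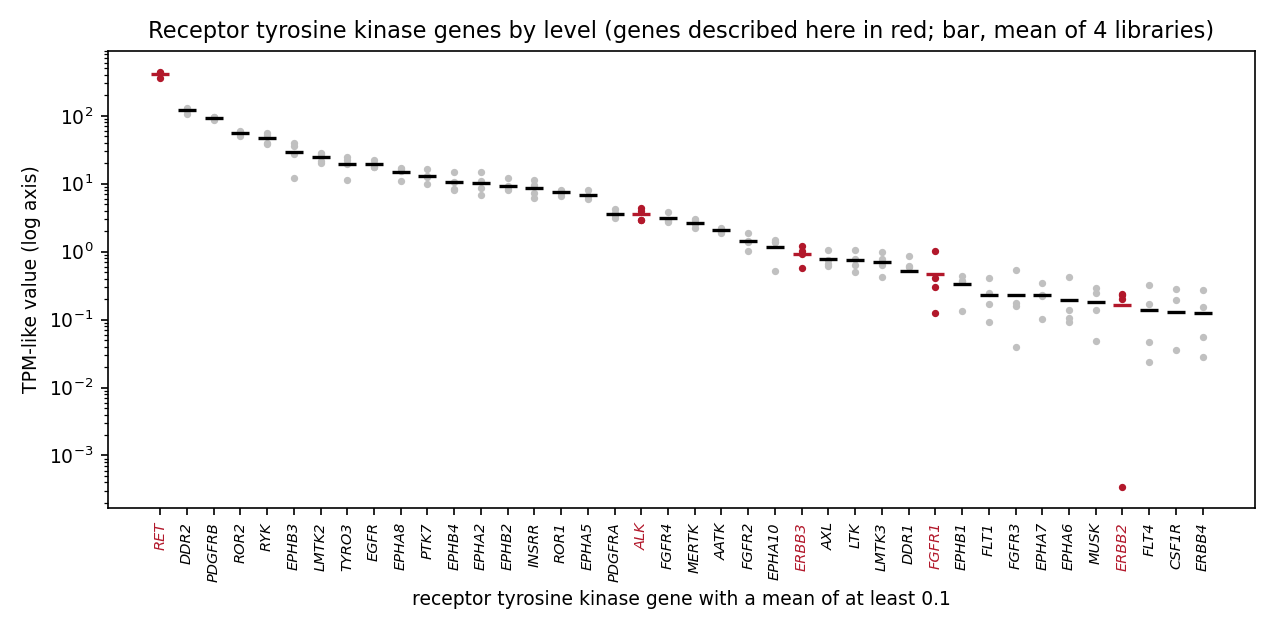
Receptor tyrosine kinase genes with a mean TPM-like value of at least 0.1, on a log axis; dots are libraries (values of 0 and 1 gene not reported here are not drawn), bars are means over 4 libraries, and the genes described here are in red. RET, with a mean of 415, stands first, and ALK, ERBB3, FGFR1 and ERBB2 follow far lower, between 3.54 and 0.166.

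The first comparison asks what changed with siMYCN, which was set against siCon once with each mimic in pairs that share no library. Fold changes were taken on log2(value + 1), a scale that shrinks differences between low values. The test was limma with siRNA and mimic as additive terms, over genes with a mean of at least 5, and its error is the departure from additivity, with 1 residual degree of freedom. Over all 9324 genes tested, 3.43% were called at a Benjamini-Hochberg adjusted p under 0.05. Of the 9 receptors only RET passed the expression filter, and 0 were called.

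For RET the siMYCN effect was a log2 fold change of -0.095 with let-7a and -0.25 with miRCon, or -6.36% and -16.1%. Over both pairs it was -0.17 ± 0.066 (SE, limma, 4 libraries), with an unadjusted p of 0.0434 and an adjusted p of 0.176 in limma. An unadjusted limma p under 0.05 was common in that fit, with 2461 of the 9324 genes tested. RET did not pass the threshold in any of the 9 settings tried, in which the adjusted p of limma ranged from 0.0753 to 0.515. The 2 tested genes whose profile over the 4 libraries lay nearest to that of RET were TRIM9, a ubiquitin ligase of neurons, and DIRC2, a lysosomal membrane protein, at Euclidean distances of 0.0081 and 0.028 on the log2 scale. With only 4 libraries 95 genes lay within 0.1 of it, so the likeness is loose. Of the 8 noradrenergic markers 6 were lower and 1 was higher in both siMYCN pairs, with a median log2 fold change of -0.20. Over all genes tested 27.4% were lower and 43.2% higher in both pairs. The higher marker was TH, at 10.7 and 11.6 in siMYCN cells with let-7a and miRCon, against 6.47 and 6.01 in siCon cells. TH was the sole marker changed at least 1.5-fold in both pairs. Of all genes tested 2.85% were that much higher. Limma called 1 marker lower, the transcription factor ISL1, as it did 127 of the 9324 genes tested. ISL1 was at 65.1 and 88.3 in siMYCN cells with let-7a and miRCon, against 116 and 128 in siCon cells. The summed level of the 8 markers was lower with siMYCN in the miRCon pair but not in the let-7a pair. CHGA makes up much of that sum. CHGA was at 1157 and 489 in siMYCN cells and 847 and 687 in siCon cells. The part of these markers in the RET values was not tested.

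NGFR was at 1.56 in siMYCN cells with let-7a and 3.39 with miRCon, against 6.59 and 7.40 in siCon cells with let-7a and miRCon. Both siMYCN values lay well below both siCon values, and the library with let-7a was the lowest. Such a lack of overlap in this direction was seen in 18.8% of gene rows with a mean of at least 1 and under 5. The values themselves changed with siMYCN by -76.3% with let-7a and -54.3% with miRCon. On log2(value + 1), which shrinks differences between such low values, the fold changes were smaller, at -1.57 and -0.94. NGFR was the sole member at least 1.5-fold lower in both pairs, a size that members near 0 cannot reach on this scale. Of the 2389 gene rows with a mean of at least 1 and under 5, 4.10% met that rule, against 1.61% of those with a mean of at least 5.

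NGFR lay just under the filter, so it was tested with the minimum lowered to 1 (an alternative added once the data had been seen). Its log2 fold change over both pairs was then -1.25 ± 0.26 (SE, limma, 4 libraries), with an unadjusted p of 0.00341 and an adjusted p of 0.0653. Of the 11713 genes in that fit 2.89% were called, and 2795 had an unadjusted p under 0.05. With no filter the adjusted p of limma was 0.422, in a fit that called 0 of 19826 genes and had 2452 at an unadjusted p under 0.05. NGFR marks Schwann cells and neural crest as well as sympathetic neurons. The summed level of 11 Schwann cell and melanocyte markers was 20.7 and 22.5 in siMYCN cells with let-7a and miRCon, against 19.4 and 17.0 in siCon cells, and between 5 and 8 of the 11 were under 1 in each library. Of these, SOX10 was at 0.871 and 1.93 in siMYCN cells with let-7a and miRCon and at 2.01 and 2.11 in siCon cells. The part of such cells in the NGFR values was not tested.

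ALK was at 2.95 in siMYCN cells with let-7a and 2.88 with miRCon, against 3.97 and 4.38 in siCon cells with let-7a and miRCon. Both siMYCN values lay below both siCon values, as for 18.8% of gene rows at this level, and the siMYCN pair were almost equal. The log2 fold change was -0.33 with let-7a and -0.47 with miRCon. With the minimum lowered to 1 it was -0.40 ± 0.24 over both pairs (SE, limma, 4 libraries), with an adjusted p of 0.360. Genes at this level scattered widely: among those with a mean of at least 1 and under 5 the siMYCN effects of the 2 pairs differed by a median of 0.41 on the log2 scale, against 0.15 for genes with a mean of at least 20.

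**Figure D3:**
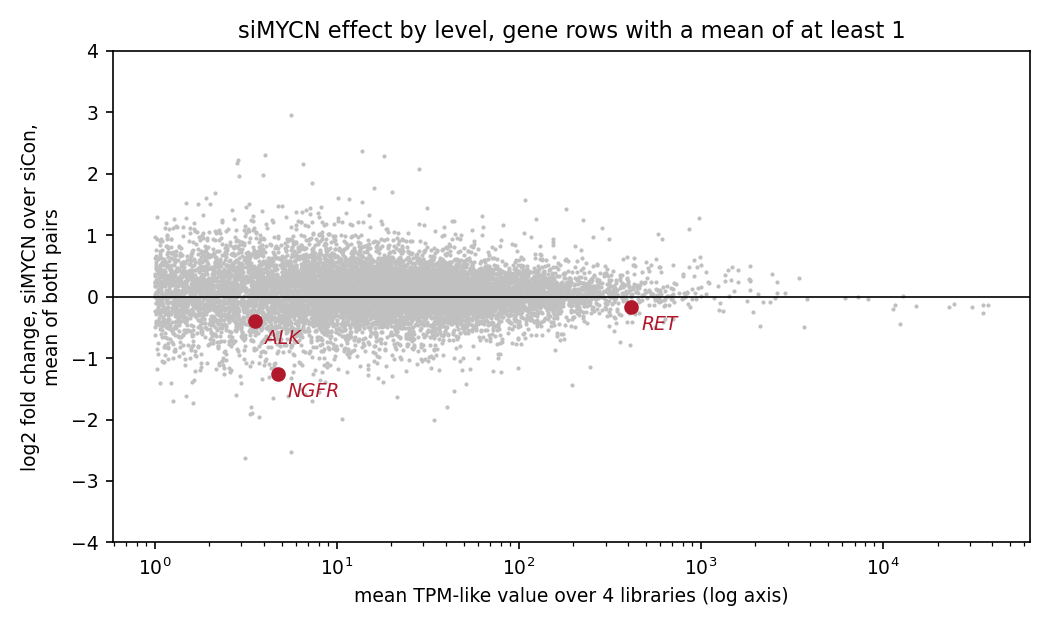
siMYCN effect (log2 fold change of siMYCN over siCon, mean of both pairs) against mean TPM-like value on a log axis for 11713 gene rows with a mean of at least 1. RET (-0.17), ALK (-0.40) and NGFR (-1.25) all lie below 0, and grey points, the other genes, spread more widely at low levels.

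Of the 6 members with a mean of at least 0.1, ERBB3 was the one higher in both pairs with siMYCN, though its values were very low. It was at 1.01 in siMYCN cells with let-7a and 1.20 with miRCon, against 0.578 and 0.917 in siCon cells. Both siMYCN values lay above both siCon values, as for 22.0% of gene rows with a mean of at least 0.1 and under 1, and the log2 fold changes were 0.35 and 0.20. With no filter the limma adjusted p was 0.437.

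FGFR1 was at 0.302 in siMYCN cells with let-7a and 0.127 with miRCon, against 0.416 and 1.04 in siCon cells with let-7a and miRCon. The siCon library with miRCon stood above the other 3, and the log2 fold changes of -0.12 and -0.85 were far apart. ERBB2 was at 0.227 in siMYCN cells with let-7a and 0.202 with miRCon, against 0.00035 and 0.235 in siCon cells. Its low value came from 1 library, siCon with let-7a, and the effects of the 2 pairs had opposite signs, 0.30 and -0.039. With no filter the limma adjusted p was 0.644 for FGFR1 and 0.760 for ERBB2.

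The second comparison set let-7a against miRCon, once with siMYCN and once with siCon. Limma called 0 of the 9324 genes tested (0%), with 697 at an unadjusted p under 0.05 and a smallest adjusted p of 0.663, and so called none of the receptors. RET was 16.1% above miRCon in siMYCN cells and 3.99% above it in siCon cells, with log2 fold changes of 0.21 and 0.056. Over both pairs this was 0.14 ± 0.066 (SE, limma, 4 libraries) with an adjusted p of 0.685.

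NGFR had a let-7a log2 fold change of -0.78 in siMYCN cells and -0.15 in siCon cells, so its lowest value was in the library with both treatments. With the minimum lowered to 1 the effect over both pairs was -0.46 ± 0.26 (SE, limma, 4 libraries) with an adjusted p of 0.724. The siMYCN effects with let-7a and with miRCon thus differed by -0.63 on the log2 scale, a difference for which 4 libraries leave no test. ALK had 0.026 in siMYCN cells and -0.11 in siCon cells, and ERBB3 had -0.13 and -0.28. Of the 2 genes with a seed match, NTRK3 was at or near 0 and FGFR1 had 0.21 in siMYCN cells and -0.53 in siCon cells.

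**Figure D4:**
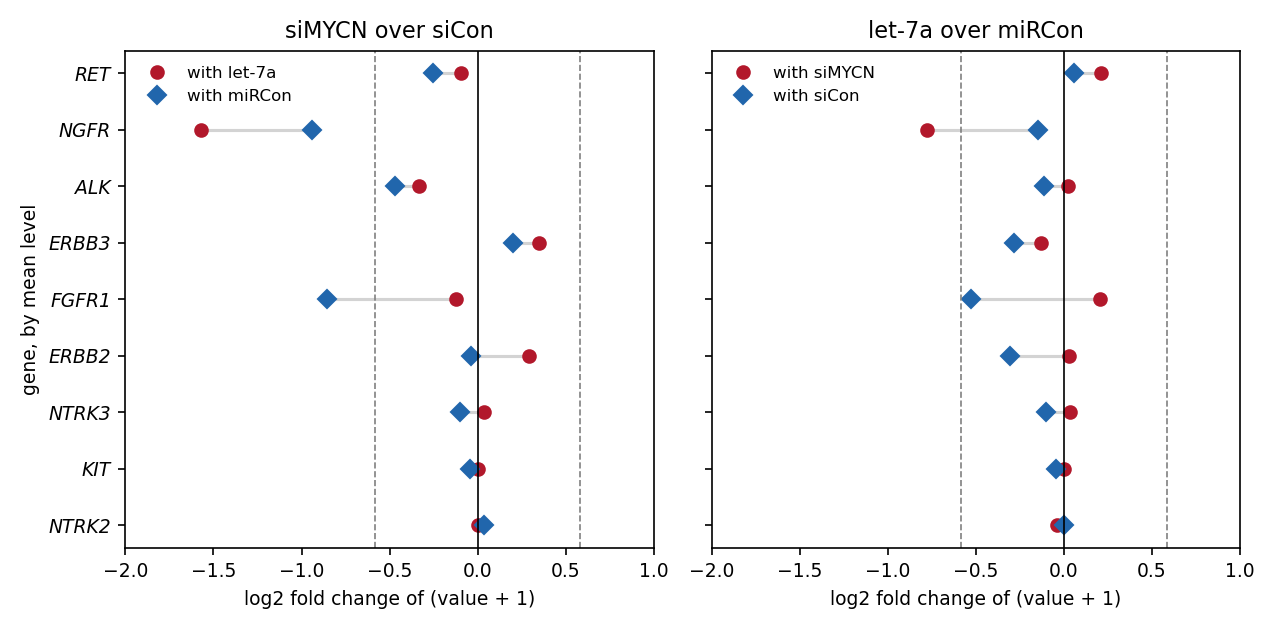
Log2 fold changes of (value + 1) for siMYCN over siCon (left) and let-7a over miRCon (right), with 1 point per pair of libraries and dashed lines at 1.5-fold. NGFR is the sole gene with both siMYCN points beyond the dashed line, at -1.57 and -0.94. Genes with values near 0 cannot lie beyond the lower line.

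The combined treatment, siMYCN with let-7a, set against siCon with miRCon is 1 library against 1 and has no test. NGFR had a log2 fold change of -1.71, with 1.56 in the combined library against 7.40 in siCon with miRCon, ALK had -0.44 and RET had -0.038. At least 1.5-fold lower values in this comparison were seen in 13.9% of gene rows with a mean of at least 1 and under 5. ALK, which did not reach that size, and NGFR, which did, thus stand against a wide background. The share was not counted at the larger size of the NGFR change. FGFR1, with a mean under 1, also passed 1.5-fold lower, with -0.65, from 0.302 in the combined library against 1.04.

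Of 39 ligand rows 5, and of 14 co-receptor rows 4, passed the expression filter. With siMYCN 1 ligand was called higher and 0 lower, and 0 co-receptors were called. Of all 9324 genes tested 193 were called higher and 127 lower. The called ligand was PTN, the growth factor pleiotrophin, which has been described as an ALK ligand and also binds other receptors. It rose to 444 in siMYCN cells with let-7a and 379 with miRCon, against 232 and 198 in siCon cells with let-7a and miRCon. Its log2 fold changes were 0.93 in each pair, and limma gave an adjusted p of 0.0198. The related MDK was nearly level, at 33.2 and 32.5 in siMYCN cells and 35.1 and 35.5 in siCon cells, and the ALK ligands FAM150A and FAM150B were listed at 0.268 or less.

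GDNF, the founding ligand of RET, was at 31.6 in siMYCN cells with let-7a and 18.8 with miRCon, against 9.11 and 10.7 in siCon cells. Both siMYCN libraries were above both siCon libraries, as for 35.6% of genes tested, the one with let-7a most of all, with log2 fold changes of 1.69 and 0.77 and a limma adjusted p of 0.0610, short of the threshold. GFRA3, the co-receptor that pairs artemin with RET, was at 7.70 and 8.36 in siMYCN cells with let-7a and miRCon, against 3.42 and 2.85 in siCon cells. Its log2 fold changes were 0.98 and 1.28, with a limma adjusted p of 0.0613. At least 1.5-fold higher in both pairs were 2.85% of all genes tested, 2 of the 5 tested ligands (PTN and GDNF) and 1 of the 4 tested co-receptors (GFRA3). Below the filter, GFRA2 was at 0.945 and 0.551 in siMYCN cells with let-7a and miRCon, against 4.99 and 1.23 in siCon cells. The listed co-receptor FGFRL1 was at 1.04 and 2.55 in siMYCN cells, against 5.08 and 4.68 in siCon cells. FGFRL1 was at least 1.5-fold lower in both pairs, as were 4.10% of gene rows at its level. With a minimum mean of 1 the median siMYCN effect was 0.19 over 8 co-receptors and 0.051 over 12 ligands.

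GFRA1, the usual co-receptor of GDNF, was listed at 0.0135 in siMYCN cells with let-7a and at 0 in the other libraries, and artemin (ARTN) at 0.474 or less. The neurotrophins BDNF, NTF3 and NTF4, ligands of the NTRK receptors and NGFR, were at 0.360 or less in every library. KITLG, the ligand of KIT, was at 0.444 and 1.42 in siMYCN cells with let-7a and miRCon, against 0.128 and 0.341 in siCon cells. NRG1, a neuregulin that binds ERBB3, was at 12.5 and 10.6 in siMYCN cells and 9.21 and 7.34 in siCon cells (limma adjusted p = 0.185). GFRA1, GFRA2, FGFRL1, ARTN, KITLG, NRG1, MDK, the neurotrophins and the ALK ligands were named after their values were seen.

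Adaptors and inhibitors of receptor signalling were expressed more widely. Of 24 tested adaptors, siMYCN gave 2 called higher and 0 lower by limma, with 16 above 0 and 3 below 0 in both pairs and a median of 0.21. Of 15 tested inhibitors it gave 2 called higher and 0 lower, with 10 above 0 and 1 below 0 in both pairs and a median of 0.28. Of all 9324 genes tested limma called 193 higher and 127 lower with siMYCN. Over the same genes 43.2% were above 0 and 27.4% below 0 in both pairs, and the median was 0.056. The 16 other receptor tyrosine kinases tested had 0 called in either direction, with 10 above and 1 below 0 in both pairs and a median of 0.17. Under let-7a limma called 0 members of every one of these lists, and over all genes tested the median was -0.031. The medians of -0.13 for co-receptors and 0.23 for ligands rest on 4 and 5 genes. With a minimum mean of 1 they were -0.21 over 8 co-receptors and 0.15 over 12 ligands.

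The adaptor CRK, which links receptors to small GTPases, rose to 52.8 and 52.1 in siMYCN cells with let-7a and miRCon, against 30.9 and 31.1 in siCon cells (limma adjusted p = 0.0376). PIK3R2, a regulatory subunit of PI3K, rose to 139 and 103 in siMYCN cells, against 84.9 and 73.5 in siCon cells (limma adjusted p = 0.0436). Both were named because limma called them.

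The inhibitor SPRY4, a Sprouty protein that dampens ERK signalling, rose to 74.4 and 54.8 in siMYCN cells with let-7a and miRCon, against 32.8 and 30.1 in siCon cells (limma adjusted p = 0.0323). PTPN1, a phosphatase that acts on receptor tyrosine kinases, rose to 74.9 and 69.3 in siMYCN cells, against 41.4 and 39.9 in siCon cells (limma adjusted p = 0.0301). SH3KBP1, which takes part in receptor endocytosis, and NEDD4L, a ubiquitin ligase, were at least 1.5-fold higher in both pairs without passing limma. Their log2 fold changes over both pairs were 0.74 and 0.77, with adjusted p of 0.0742 and 0.0850 in limma. The calls of PTN, CRK, PIK3R2, SPRY4 and PTPN1 were lost with no filter and with limma without a trend, settings in which limma called 0 genes at all, with 2452 and 2221 at an unadjusted p under 0.05. SPRY2, another Sprouty protein, named after its values were seen, was at 66.7 and 99.7 in siMYCN cells with let-7a and miRCon and at 73.1 and 74.1 in siCon cells. Its log2 fold changes had opposite signs, -0.13 with let-7a and 0.42 with miRCon.

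**Figure D5:**
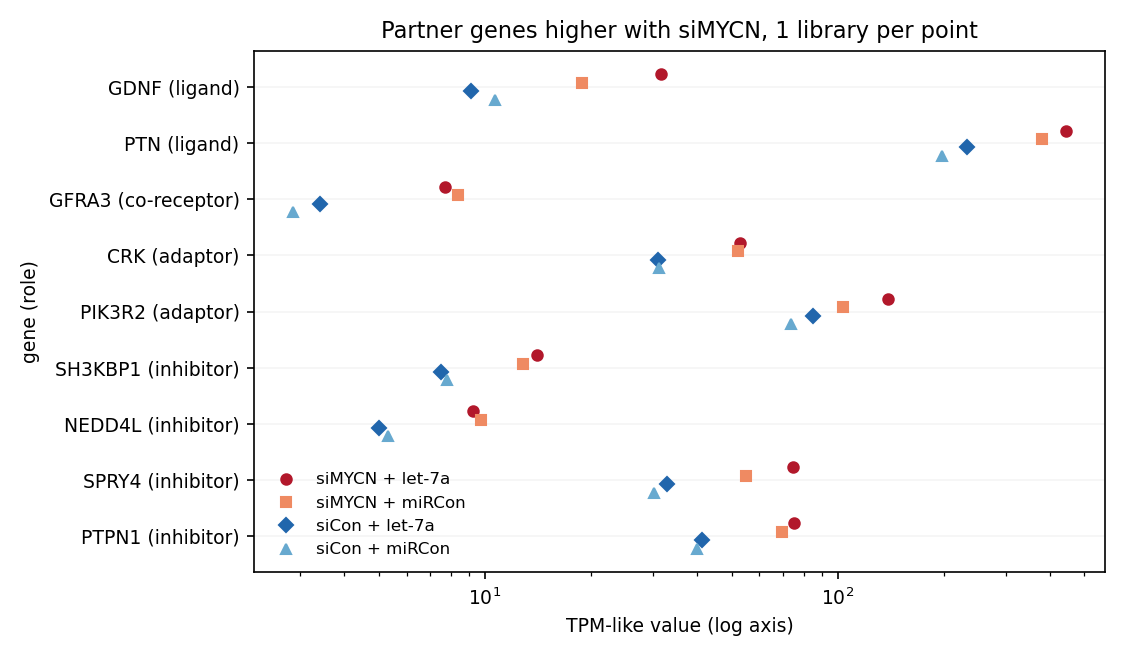
TPM-like values (log axis) of the partner genes called by limma or at least 1.5-fold higher in both pairs with siMYCN, with their role in brackets and 1 point per library. The genes were chosen for being higher, so both siMYCN points of each lie to the right of both siCon points, as for PTN at 444 and 379 with siMYCN against 232 and 198 with siCon.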

How the data were processed

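The authors deposited 1 table with a natural log value (ln of value + 1) per gene and library. Base e was chosen because exp(x) - 1 gave nearly equal sums per library, of the size TPM would give, and the back-transformed values are called TPM-like. The submitters' processing notes name HISAT 0.1.6 and Salmon 0.3.2 and, as build, GRCh38. How genes were annotated, filtered and log-transformed is not given in the sources used here. The 11 vector rows were set apart. Groups came from the labels, 1 library each.

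Limma 3.58.1 (trend) in R 4.3.3 was fitted to log2(value + 1), with additive siRNA and mimic terms, on the 9324 genes with a mean of at least 5, and p-values were adjusted by Benjamini-Hochberg over all of them. Prior degrees of freedom were 4.30 beside the 1 residual, so errors rest largely on other genes. In simulated siMYCN effects over 9324 genes, with additive noise drawn from the fitted prior, the fit called 17.9% of genes changed 1.5-fold, 53.7% at 2-fold and 86.4% at 4-fold, with 7 false calls. The simulated noise followed the fit's own model and held no let-7a effect. These shares and false calls therefore need not hold for the measured libraries. The members and lists were chosen with earlier results of these data known. Some listed genes are not reported here. Named list genes were those called by limma or at least 1.5-fold in both pairs, and otherwise the 3 highest of a list. Alternatives were a pseudocount of 0.1 or 5, dropping the filter, a minimum mean of 20, median-ratio rescaling, no trend in limma, leaving out the other factor, other fold sizes and each pair alone; a minimum mean of 1 was added after the data were seen. Sites were searched in GENCODE 29 3' UTRs, with Python 3.11.15.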

Additional observations from a re-analysis of the deposited data

Results flagged for a closer look

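The pairs of a treatment moved in opposite directions for 4 of the 9 genes, and these differences were not tested. The let-7a effect of ALK was 0.026 with siMYCN and -0.11 with siCon, a difference of 0.14 on the log2 scale, and that of FGFR1 was 0.21 and -0.53, a difference of 0.73. ERBB2 had siMYCN effects of 0.30 with let-7a and -0.039 with miRCon, and let-7a effects of 0.030 with siMYCN and -0.30 with siCon, a difference of 0.33 in each case. NTRK3 had both effects at 0.038 and -0.10, a difference of 0.14. The means of ERBB2, FGFR1 and NTRK3 were under 1. Opposite signs in the 2 pairs were common: among gene rows with a mean of at least 0.1 and under 1 they were seen for siMYCN in 42.0% and for let-7a in 46.1%, and among those with a mean of at least 1 and under 5 in 38.8% and 47.2%. For either treatment, as the 4 genes were counted, the shares were 59.5% and 60.3% at these levels.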

How the results depend on the processing

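Limma called 0 of the receptors in all 9 settings, of which the fits held 1, 3 or 9 of them. Called list genes with siMYCN numbered 5 higher and 0 lower in the main setting, 9 higher and 1 lower with values rescaled by median ratios, and 0 higher with no filter and with limma without a trend. The 9 include GDNF and GFRA3, and the 1 lower is EPHB3, named after its value was seen. Over all genes, rescaling gave 434 higher and 493 lower calls against 193 and 127, and shifted the median siMYCN effect by -0.056. The rule of at least 1.5-fold lower in both pairs was met by 1 member (NGFR) with no filter and with a minimum mean of 1, and by 0 at a mean of at least 5, because NGFR is not among the genes tested there. The siMYCN effect of NGFR ranged from -1.56 with a pseudocount of 0.1 to -0.69 with one of 5, and that of ALK from -0.50 to -0.21. No direction reversed for RET. The fit already pairs the libraries by the other factor through its additive term. The labels give no replicate numbers and each group is 1 library, so no replicate block could be fitted and no replicate left out. Leaving the other factor out of the model gave RET a limma adjusted p of 0.271 with siMYCN. Unknown depth limits every value under 5.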
